A study of Mus musculus with 94 samples.

Results

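The Id family, the inhibitors of DNA binding *Id1*, *Id2*, *Id3* and *Id4*, was examined in single primary perivascular adipose-derived stem cells (PV-ADSCs) of the mouse. The members were taken by gene symbol, and all 4 had a row among the 16069 genes of the table. The cells were taken from fat surrounding the thoracic aorta in 8-week-old c57/bl mice. The tissue was not diseased, was digested with collagenase I, and was neither cultured nor treated before the sort. Live single cells without CD45 (a leukocyte antigen) or CD144 (VE-cadherin, the product of *Cdh5*) and with CD29 (an integrin) and Sca1 (the product of *Ly6a*) were sorted, and 1 full-length SMARTseq v4 library was made from each cell. The series lists 94 cells, of which 85 had values and 9 were not analysed here. No animal was named for any cell and the number of mice behind the sorted cells was not stated, so the 85 cells were 1 sample of 1 condition without biological replicates. No p value was therefore computed, and SDs are over cells.

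Id proteins carry a helix-loop-helix domain but lack the basic region with which basic helix-loop-helix (bHLH) transcription factors bind DNA. They pair with E proteins, the common partners of tissue-specific bHLH factors, and keep them from binding E-box sequences. BMP signalling through SMAD1 and SMAD5 is a well-known inducer of the family. ID1 and ID3 are known for their role in growing blood vessels, and ID2 and ID4 for roles in adipocyte differentiation.

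The start regions of the genes are shown because the family is regulated in large part at its promoters. RefSeq sequence of build GRCm38.p6 was found for 3 of the 4 members, and each sequence is the 250 bases that end just before the annotated start, 5′ to 3′ on the strand of the gene. The *Id2* sequence lies at chr12:25096093-25096342 on the minus strand, that of *Id3* at chr4:136143572-136143821 on the plus strand, and that of *Id4* at chr13:48260866-48261115 on the plus strand. Capitals mark matches, on either strand, to GGCGCC (letters at the core of known BMP-responsive SMAD sites in Id promoters), CANNTG (the E-box), CCAAT and TATAA.
Id2: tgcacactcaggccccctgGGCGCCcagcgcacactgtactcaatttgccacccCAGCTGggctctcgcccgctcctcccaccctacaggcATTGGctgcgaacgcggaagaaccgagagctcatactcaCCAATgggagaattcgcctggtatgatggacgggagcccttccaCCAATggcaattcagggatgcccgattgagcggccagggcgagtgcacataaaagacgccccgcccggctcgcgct
Id3: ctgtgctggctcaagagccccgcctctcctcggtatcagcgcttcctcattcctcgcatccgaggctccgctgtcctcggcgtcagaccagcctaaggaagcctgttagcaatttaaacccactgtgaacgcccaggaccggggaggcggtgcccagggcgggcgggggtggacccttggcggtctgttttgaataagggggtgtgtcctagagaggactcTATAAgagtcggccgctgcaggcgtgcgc
Id4: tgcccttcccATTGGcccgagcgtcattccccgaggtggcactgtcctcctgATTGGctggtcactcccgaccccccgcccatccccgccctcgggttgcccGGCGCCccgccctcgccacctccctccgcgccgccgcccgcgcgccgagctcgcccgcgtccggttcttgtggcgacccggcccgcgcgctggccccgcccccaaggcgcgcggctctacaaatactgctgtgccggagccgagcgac

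The 3 sequences held different sets of these letters. GGCGCC stood at -231 to -226 from the start of *Id2* and at -148 to -143 from that of *Id4*, and was not among the letters of the *Id3* window. It was found in 9.59% of the 32851 windows of the same length from all entries of the RefSeq table. An E-box was present once, in *Id2*, and 66.2% of all windows had at least 1. *Id2* had 3 CCAAT matches and *Id4* had 2, against 33.8% of all windows with at least 1. The only TATAA match was at -29 to -25 of *Id3*, and 22.8% of all windows had one. GTCT, the short SMAD-binding letters, which are not capitalised, had 2 matches in *Id3*, 1 in *Id2* and 0 in *Id4*, and at least once in 82.9% of all windows. The GC content was 62.8% in *Id2*, 62.8% in *Id3* and 75.6% in *Id4*, and the median of all windows was 52.4%. A match of this kind is a description of letters and not a site shown to be bound.

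Cells were divided by *Dcn* (decorin, a collagen-binding proteoglycan of fibroblasts and other stromal cells). Of the 85 cells, 58 (68.2%) had a deposited value of at least 1000 and are called stromal cells, and 27 (31.8%) lay below and are called other cells. The values left a wide gap at this line. The highest below it were 269 and 239, and the lowest above it were 6521 and 11185. The cell at 6521 (cell 50) had only 69 recovered reads of *Dcn*, the fewest reads of all cells and no stromal marker at 100 or more recovered reads, and leaving it out turned no direction given below. At a value of 100 or more, at least 3 endothelial markers were present in 24 of the 27 other cells and in 1 of the 58 stromal cells. At least 4 stromal markers were present in 57 of the 58 stromal cells and in 0 of the 27 other cells. *Cdh5*, whose product the gate excludes, was above 0 in 23 of the 27 other cells. The median summed reads of the endothelial marker list were 24372 (range 0 to 43725) in the other cells and 11 (range 0 to 16268) in the stromal cells. *Tie1* and *Erg* were at 0 in the stromal cells, but were above 0 in only 7 and 2 of the other cells. The endothelial markers most often at 100 or more reads in stromal cells were *Tek* (9 stromal and 8 other cells) and *Kdr* (5 and 14). The stromal list had a median of 235062 (110 to 607046) in the stromal cells and 47 (26 to 7807) in the other cells, where *Col1a1*, *Clec3b* and *Fbln1* were at 0.

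The deposited values are normalised read counts, and the whole reads behind them could be recovered for every member (range over cells 1146945 to 4776510 reads, median 2847986). A level below is the mean of log2(value + 1) over cells unless reads or CPM, recovered reads scaled to a common total per cell, are named. The other cells had fewer genes above 0 than the stromal cells, with a median of 1416 against 2813, at similar depth (2714449 against 2963854 reads). Less RNA per cell and fewer transcripts of a given gene cannot be told apart in these data. Most genes were also lower in the other cells. Over the 6127 genes above 0 in at least 10 cells, the median difference of levels, other minus stromal cells, was -1.32, and each member is read against it.

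*Id3* was the most widely found member. It had at least 1 read in 66 of the 85 cells (77.6%, exact 95% interval 67.3 to 86%), *Id1* in 37 (43.5%, 32.8 to 54.7%), *Id2* in 30 (35.3%, 25.2 to 46.4%) and *Id4* in 12 (14.1%, 7.51 to 23.4%). These intervals cover counting error only. In CPM per kb of the longest transcript, which allows genes to be compared, the mean over stromal cells was 1060 ± 1325 (SD, n = 58 cells) for *Id3*, 150 ± 278 for *Id2*, 30.1 ± 118 for *Id1* and 13.8 ± 42.1 for *Id4*. In the other cells it was 1334 ± 1997 (n = 27 cells) for *Id3*, 727 ± 1100 for *Id1*, 198 ± 716 for *Id2*, and 0 for *Id4*. Every SD exceeded its mean where the mean was above 0, so no neighbours in this order differed by more than the larger SD of the pair. The medians over stromal cells were 797 for *Id3* and 0 for *Id1*, *Id2* and *Id4*. Over the other cells they were 464 for *Id3*, 2.37 for *Id1*, and 0 for *Id2* and *Id4*.

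**Figure D1:**
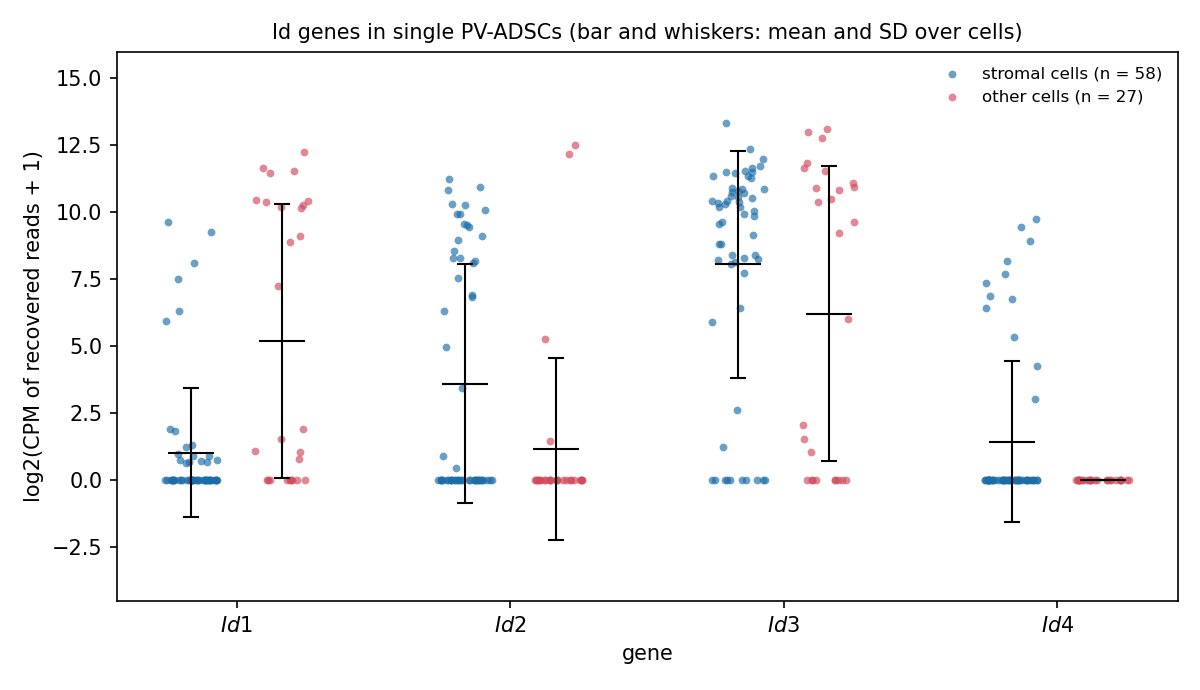
Level of each Id gene in each cell, as log2(CPM + 1) of recovered reads (vertical axis), for stromal (n = 58) and other cells (n = 27), with the mean and SD over cells. Most values sit either at or near 0 or far above it; *Id1* has a mean of 1.04 in stromal and 5.20 in other cells, and *Id4* is at 0 in all other cells.

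*Id1*, long known from growing endothelium, was found more often and at a higher level in the other cells. In them its reads ran from 0 through a median of 8 to 9444, and in the stromal cells from 0 through a median of 0 to 3253. The 2 ranges overlapped, and in both classes cells either held many reads or almost none. At least 1 read was found in 18 of 27 other cells (66.7%, 46 to 83.5%) and in 19 of 58 stromal cells (32.8%, 21 to 46.3%). At 10 or more reads these became 13 of 27 (48.1%, 28.7 to 68.1%) and 6 of 58 (10.3%, 3.89 to 21.2%). The counts were identical at 100 or more reads, so no cell had between 10 and 99 reads of *Id1*. The intervals of the classes did not overlap at 10 or more reads, and they met within counting error at 1 or more. Of the 19 stromal cells above 0, 13 held fewer than 10 reads, and the median among those above 0 was 3 reads, against 2734 in the other cells. Across all values above 0 in the table, 21.7% were under 10 reads.

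The level of *Id1* was 5.52 ± 5.32 (SD, n = 27) in the other cells and 1.32 ± 2.95 (n = 58) in the stromal cells, a difference of 4.20 (4.17 in CPM). Only 38 of the 6127 genes had a larger difference in this direction. A difference of at least 1, higher in the other cells, was found for 226 genes, or 3.69% of those compared (3.53% in CPM), and *Id1* was the 1 member among them. The other cells held 89% of all *Id1* reads (63605 in total), the 5 cells with the most reads were all of this class, and so were 9 of the 10 with the most. All 13 cells with 10 or more reads were among the 24 other cells with at least 3 endothelial markers (54.2%, 32.8 to 74.4%), and 0 were among the remaining 3, a number too small to set a limit.

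The 13 other cells with *Id1* did not have more genes above 0 than the 14 without it (median 1261 against 1444) or more reads (2383238 against 2754115). The 6 stromal cells with 10 or more reads of *Id1* held 171, 238, 420, 757, 2144 and 3253 reads. Each of them had at most 1 endothelial marker at a value of 100 or more. They had a median of 3171 genes above 0, against 2777 in the other 52 stromal cells. The cell with 3253 reads also had the highest deposited value of *Id1* of all 85 cells, 10136. The factor inferred from the deposited values for the gene group of *Id1* in that cell was 3.12. The cell with the most reads (9444) was an endothelial-marker cell. The order of single cells therefore depended on the normalisation. The class difference did not, as it ranged from 2.51 to 5.36 over all settings tried.

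**Figure D2:**
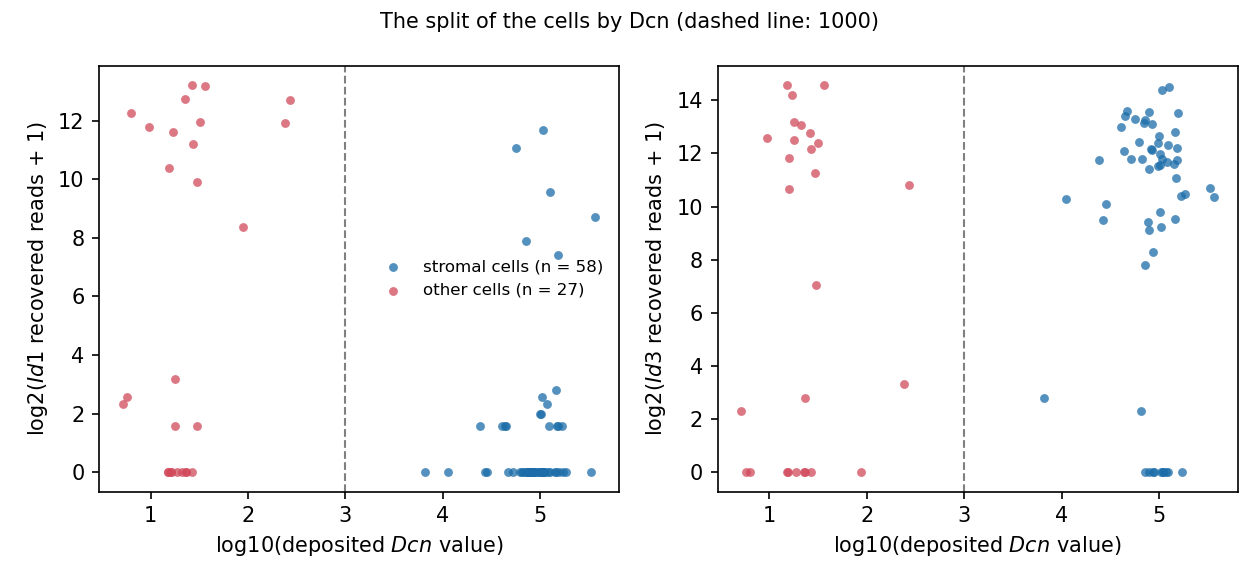
Recovered reads of *Id1* and *Id3*, as log2(reads + 1) (vertical axes), against the deposited *Dcn* value on a log10 axis, 1 point per cell (58 stromal, 27 other); the dashed line is the split at 1000. Cells with many *Id1* reads lie mainly left of the line (13 of 27 against 6 of 58 at 10 or more reads), and cells with many *Id3* reads lie on both sides (15 of 27 and 46 of 58).

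*Id3* was found in both classes. Its reads ran from 0 through a median of 3016 to 22934 in the stromal cells and from 0 through a median of 1633 to 24176 in the other cells, with full overlap. At least 10 reads were present in 46 of 58 stromal cells (79.3%, 66.6 to 88.8%) and in 15 of 27 other cells (55.6%, 35.3 to 74.5%), and the counts at 100 or more reads were the same. The 2 intervals overlapped. All 15 were among the 24 cells with endothelial markers (62.5%, 40.6 to 81.2%). The level was 9.34 ± 4.70 (SD, n = 58) in stromal and 7.20 ± 6.16 (n = 27) in other cells, a difference of -2.14. Against the 24 other cells with endothelial markers alone it was -1.32. A difference of at least 1, higher in stromal cells, was the usual case, with 3695 genes or 60.3% of those compared (51.9% in CPM), and *Id2*, *Id3* and *Id4* were all among them. *Id3* lay between the extremes, with 1712 genes that had a lower difference and 4414 a higher one.

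The sign of the *Id3* difference depended on the measure. The mean CPM was 1354 in stromal and 1705 in other cells, so the log2 ratio of mean CPM was 0.33, higher in the other cells. Among cells with 10 or more reads, the mean log2(CPM + 1) was higher by 0.81 in the other cells. A smaller share of the other cells thus held *Id3*, with overlapping intervals, and in those that held it *Id3* took a somewhat larger part of the reads. These 2 CPM measures were not computed over all genes, so the usual difference in them is not known here. The stromal cells with *Id3* had a median of 2820 genes above 0 and those without it 2648, and the corresponding medians of the other cells were 1471 and 1252. The other cells without it included cells 13, 67 and 89, which had only 377, 285 and 405 genes above 0.

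*Id2*, an inhibitor with known roles in adipocytes and lymphocytes, was found mainly in stromal cells. At 10 or more reads it was present in 24 of 58 stromal cells (41.4%, 28.6 to 55.1%) and in 3 of 27 other cells (11.1%, 2.35 to 29.2%), with intervals that touched. Reads ran from 0 through a median of 0 to 9475 in the stromal cells. In the other cells 4 were above 0, with 6, 76, 13447 and 15730 reads, so the 2 highest *Id2* counts of all 85 cells were in the class that seldom had it. The level was 3.98 ± 4.85 (SD, n = 58) in stromal and 1.36 ± 3.91 (n = 27) in other cells, a difference of -2.61.

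The difference of *Id2* reversed with the 2 measures that reversed *Id3*. The mean CPM was 296 in stromal and 390 in other cells, a log2 ratio of 0.40, and among cells with 10 or more reads the other cells were higher by 1.33. Of the 3 other cells behind the second value, 2 were those with 13447 and 15730 reads. The 5 cells with the most reads held 58.7% of all *Id2* reads. The stromal cells with 10 or more reads of *Id2* had a median depth of 3338621 reads and the remainder 2843216. With every cell thinned to 1146945 reads, *Id2* was above 0 in 24 of the 58 stromal cells, against 26 before.

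*Id4* was the rarest member and was read in stromal cells alone. It was above 0 in 12 of 58 (20.7%, 11.2 to 33.4%), all with 10 or more reads, and in 0 of 27 other cells, where a limit of 3 cells gives a share of up to 11.1% and the exact interval one of up to 12.8%. Either limit is for cells with reads and not for cells with the transcript. The 12 cells held 22, 63, 110, 239, 433, 468, 513, 717, 928, 1504, 1787 and 2583 reads, a lower maximum than that of any other member. The level in stromal cells was 1.79 ± 3.65 (SD, n = 58), and the difference of -1.79 was near the -1.32 of the median gene. The cells with *Id4* had a median of 3147 genes above 0 and the stromal cells without it 2800. *Id4* overlaps the antisense gene *A330033J07Rik* and the noncoding gene *Gm49291* on the opposite strand in the annotation. The kit does not keep the strand, so the reads of these genes cannot be told apart from those of *Id4*, and neither has a row in the table.

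**Figure D3:**
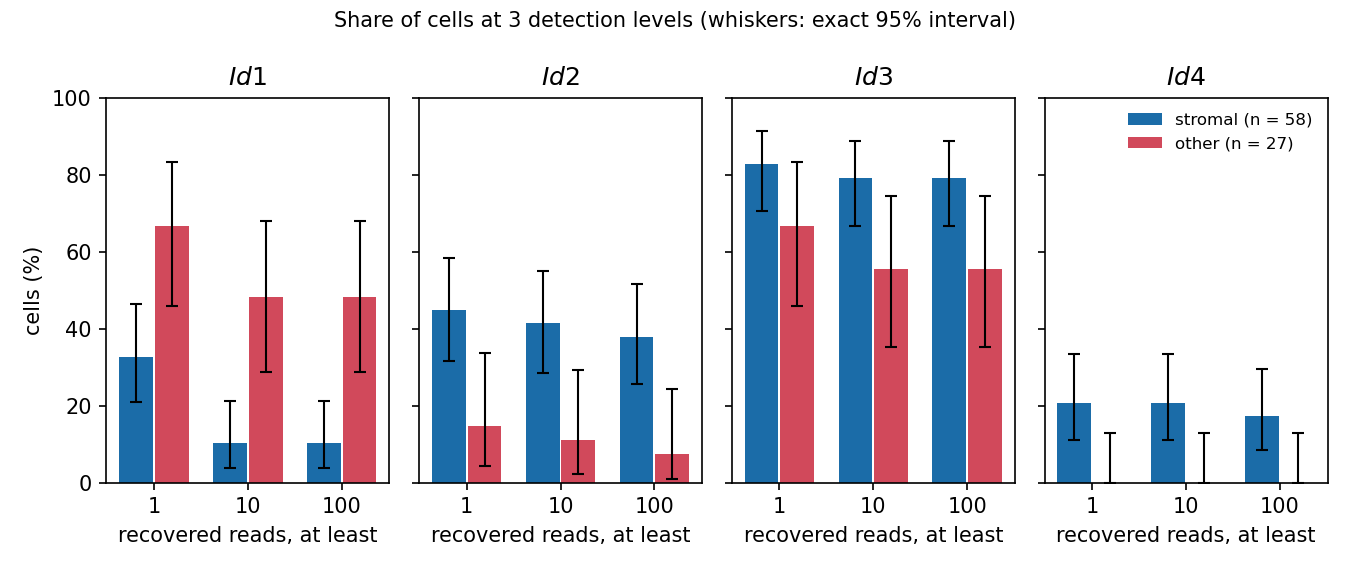
Percent of stromal (n = 58) and other cells (n = 27) with at least 1, 10 and 100 recovered reads of each Id gene; bars start at 0 and lines are exact 95% intervals. *Id1* is found in a larger share of other cells (48.1% against 10.3% at 10 reads), *Id2*, *Id3* and *Id4* in a larger share of stromal cells, and the share of stromal cells with *Id1* falls between 1 and 10 reads from 32.8% to 10.3%.

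Most cells held 1 or 2 members of the family. At 10 or more reads, 5 of the 58 stromal cells had none, 26 had 1, 20 had 2, 6 had 3 and 1 had all 4 members. Of the 27 other cells 6 had none, 13 had 1, 6 had 2 and 2 had 3. Of the 6 with none, 3 (cells 13, 67 and 89) had no endothelial or stromal marker at a value of 100 or more. They had only 377, 285 and 405 genes above 0. In the stromal cells *Id3* alone was the most frequent state, with 19 cells, followed by *Id2* with *Id3* in 14. *Id2* alone was found in 4, *Id3* with *Id4* in 4, *Id4* alone in 3 and *Id2*, *Id3* and *Id4* in 3. All 6 stromal cells with *Id1* also held *Id3*, at 1313 to 21577 reads, and none of them held *Id1* alone. In the other cells *Id3* alone was found in 7, *Id1* alone in 6 and both without *Id2* in 5.

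In the other cells *Id1* and *Id3* were spread over nearly equal numbers of cells with both (7), *Id1* without *Id3* (6), *Id3* without *Id1* (8) and neither (6). Cells 13, 67 and 89 were among those with neither. Of the 24 other cells with at least 3 endothelial markers, 3 had neither. Spearman's rho of the values of *Id1* and *Id3* was 0.05 over the 27 other cells, and 0.28 over the 58 stromal cells. The highest rho of any pair was 0.31, for *Id1* and *Id2* in the other cells, where 2 cells held both, and Pearson's r on log2 values was 0.12. The cells share 1 sort and 1 sample and the counts are sparse, so correlations this weak are a description and no relation between members is read from them. One other cell (cell 55) was high for 3 members, with 9270 reads of *Id1*, 13447 of *Id2* and 24080 of *Id3*. It had 7 endothelial markers and 1731 genes above 0.

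**Figure D4:**
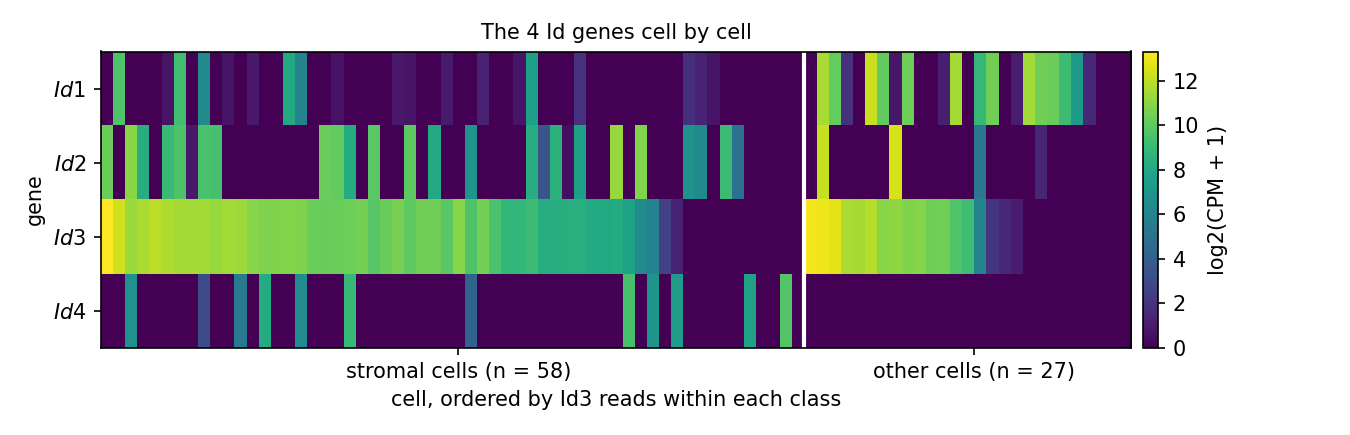
Heat map of the 4 Id genes (rows) over the 85 cells (columns), coloured by log2(CPM + 1) of recovered reads. A white line separates the classes and cells are ordered by *Id3* reads within each. *Id3* fills most of its row in the stromal cells (46 of 58 at 10 or more reads). In the other cells *Id1* is present both with *Id3* (7 cells) and without it (6 cells).

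The lists that follow are read against the 60.3% of all genes that were higher by at least 1 in stromal cells (51.9% in CPM), the 3.69% higher in other cells and the median of -1.32. BMP ligands were seldom read in these cells. Of 13 BMP ligands listed, 5 had a row and 1 could be compared: *Bmp7* was above 0 in 9 of 58 stromal and 1 of 27 other cells, with a difference in level of -1.03 (-0.73 in CPM). *Bmp4*, picked here after its values were seen, was above 0 in 8 stromal and 0 other cells. All 8 receptors had a row and 5 were compared, of which 1 was higher by at least 1 in the other cells and 3 in the stromal cells, with a median difference of -1.01 (2 in the stromal cells in CPM), so the share in stromal cells was that of all genes. The 1 was *Eng* (endoglin, the BMP co-receptor of endothelium). It was above 0 in 14 of 27 other and 13 of 58 stromal cells, with a difference of 1.77. Its reads were few, with a median of 2 in the other cells, and 4 other and 1 stromal cells held 100 or more. *Eng* is also on the endothelial marker list by which the classes were described above. *Acvrl1*, the type I receptor that acts with endoglin, was above 0 in 2 other and 13 stromal cells (difference -0.93). The type I receptor *Bmpr1a* was found in 20 stromal and 0 other cells (-2.90), and the type II receptors *Bmpr2* (-2.73) and *Acvr2a* (-1.01) were also lower in the other cells.

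Among the SMADs, the signal carriers of the pathway, 4 of 6 were compared, 0 were higher and 2 (1 in CPM) were lower by at least 1 in the other cells, not above the share of all genes. *Smad1* had a difference of 0.22, with 7 of 27 other and 14 of 58 stromal cells above 0, *Smad7* of -0.71, *Smad5* of -1.08 and the common partner *Smad4* of -2.25. All 5 of the antagonists and modulators of the pathway that could be compared, of 13 listed, were higher by at least 1 in the stromal cells (4 in CPM), with a median difference of -1.71. *Nbl1*, a secreted BMP antagonist, was above 0 in 29 of 58 stromal and 0 of 27 other cells (-6.13), and *Fstl1*, a secreted follistatin-like protein, in 41 and 8 (-4.71). *Bambi*, a decoy receptor, was found in 11 stromal and 0 other cells. *Bmper*, a secreted modulator of BMPs, and *Smurf2*, a ubiquitin ligase for receptors and SMADs, were the remaining 2.

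The E proteins are the partners that Id proteins bind. Of the 3, *Tcf4* was the one widely read, above 0 in 39 of 58 stromal and 21 of 27 other cells, with levels of 5.06 ± 4.01 and 6.45 ± 5.07 (SD, n = 58 and 27) and a difference of 1.39. *Tcf12* had a difference of -1.20 (-0.93 in CPM), and *Tcf3*, named here after its values were seen, was above 0 in only 5 cells, all stromal. At 10 or more reads, *Tcf4* was present in all 6 stromal cells with *Id1* and in 31 of the 52 without it. In the other cells it was present in 10 of the 13 with *Id1* and in 6 of the 14 without. For *Id3* the corresponding counts were 28 of 46 and 9 of 12 in stromal cells, and 11 of 15 and 5 of 12 in other cells. Cells 13, 67 and 89, with few genes above 0, were in both groups of other cells without the member. The counts were not repeated without these cells. In stromal cells, *Tcf4* was in 15 of 24 cells with *Id2* and 22 of 34 without. For *Id4* it was in 6 of 12 and 31 of 46. *Tcf12* was in 0 of the 6 stromal cells with *Id1* and 14 of the 52 without, and for *Id3* in 13 of 46 and 1 of 12. The 6 stromal cells with *Id1* also had more genes above 0 (median 3171 against 2777). Such counts were not computed over all genes, so no link of a member to an E protein is read from them.

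Of 32 further bHLH factors listed, 12 had a row and 5 were compared, of which 1 was higher in the other and 3 in the stromal cells, again near the 60.3% of all genes. The 1 was *Tcf15*, which codes for a bHLH factor known from somites and from endothelium of fat and muscle. It was above 0 in 15 of 27 other and 3 of 58 stromal cells, and at 100 or more reads in 13 and 0, with a difference of 5.42. Its 13 other cells with 10 or more reads were found in like numbers among those with *Id1* (7 of 13) and without it (6 of 14), and were 9 of the 15 with *Id3* and 4 of the 12 without. Both groups without the member again included cells 13, 67 and 89. *Twist1* (-1.94) and *Twist2* (-1.48), mesenchymal bHLH factors, were each above 0 in 13 stromal and 0 other cells. *Bhlhe40*, a repressor of the circadian clock, had a difference of -3.99, and *Hes1*, a Notch target, of -0.35.

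Genes that Id proteins are known to act on were few. Of 8 cell cycle inhibitors and *Thbs1* listed together, 3 were compared. *Cdkn1a*, which codes for the p21 inhibitor, was above 0 in 17 of 27 other and 31 of 58 stromal cells, with a difference of 2.51. At 10 or more reads it was present in 13 of the 15 other cells with *Id3* and in 4 of the 12 without, and in 24 of 46 and 4 of 12 stromal cells. For *Id1* the counts were 9 of 13 with it and 8 of 14 without it in the other cells, and 1 of 6 and 27 of 52 in the stromal cells. Here too the other cells without *Id1* or *Id3* included cells 13, 67 and 89, with few genes above 0. *Cdkn1c*, another inhibitor of the same family, had a difference of -2.13, and *Thbs1*, an inhibitor of vessel growth, of -2.62. The 3 genes of Id protein turnover, *Usp1*, *Wdr48* and *Fzr1*, were above 0 in 7, 3 and 3 stromal cells and in 0 other cells, too few for a comparison.

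Immediate early genes, which rise quickly in stimulated or dissociated cells, were also set beside the family. Of 19 listed, 17 were compared, 0 were higher and 13 (10 in CPM) were lower by at least 1 in the other cells, with a median difference of -2.15, beside 60.3% (51.9% in CPM) and -1.32 over all genes. *Fosb* (-7.04), *Klf4* (-5.14), *Nr4a1* (-4.55) and *Myc* (-3.65) were the lowest in the other cells, and *Egr1* (-0.07) and *Ier2* (0.31) hardly differed in level between the classes. Whether digestion and sorting had a part in the levels of the Id genes was not tested.

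**Figure D5:**
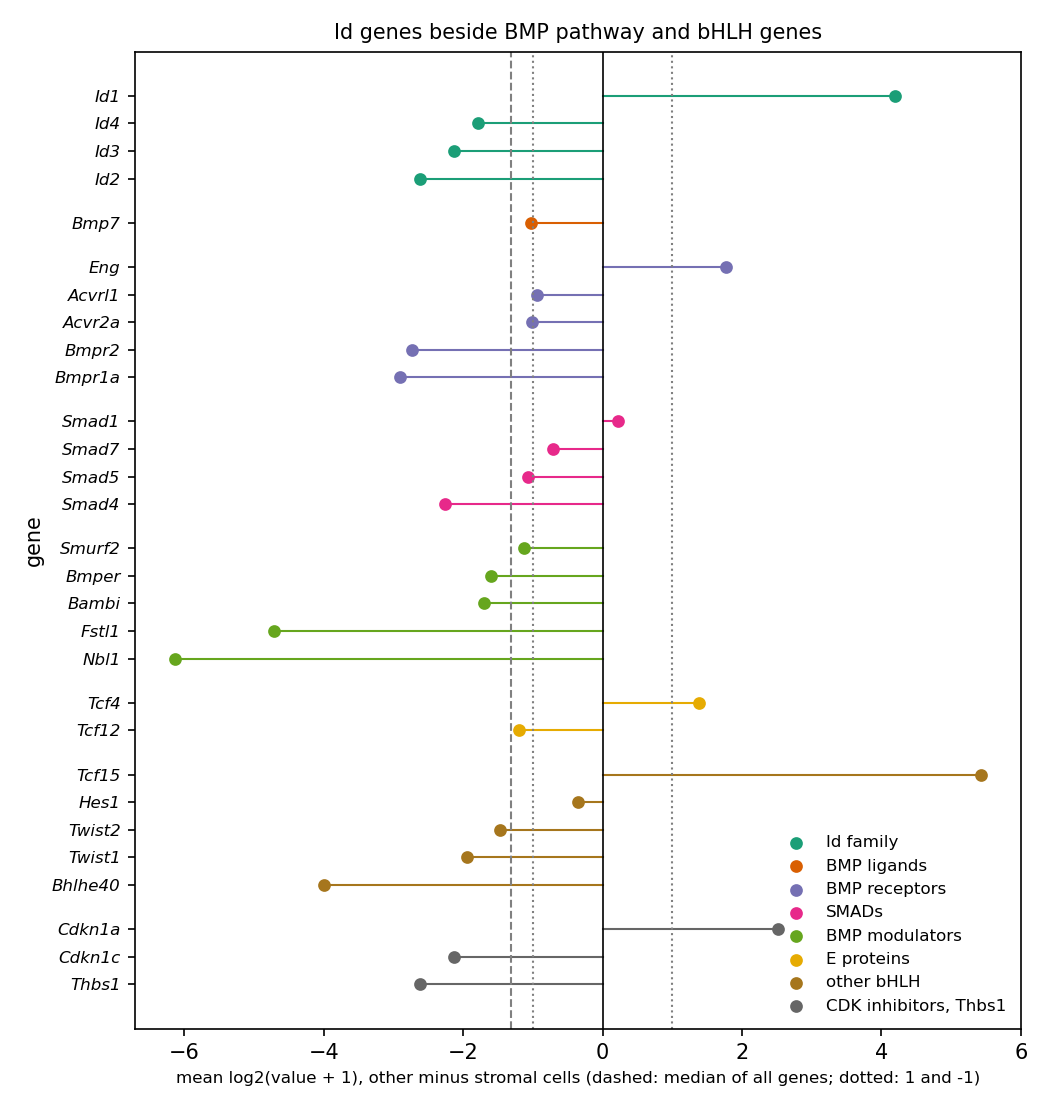
Difference in mean log2(value + 1), other minus stromal cells (horizontal axis), for the Id genes and the genes of the BMP, E protein, bHLH and cell cycle lists that were above 0 in at least 10 cells; the dashed line is the median of all 6127 genes, -1.32, and dotted lines are at 1 and -1. *Id1* (4.20) stands to the right with *Tcf15* (5.42), *Cdkn1a* (2.51), *Eng* (1.77) and *Tcf4* (1.39), and the other 3 Id genes lie left of the dashed line.

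The genes most like each member over all 85 cells were ranked by Spearman's rho of deposited values among 6126 genes. For *Id1* they were *S1pr1* (0.44), *Cdh5* (0.43), *C1qtnf9* (0.43), *Clic5* (0.41) and *Rbp7* (0.40), while the 95th percentile of all genes was 0.15. For *Id2* they were led by *Snrpg* (0.54), *Gm8186* (0.52), *Hax1* (0.47) and *Vkorc1* (0.46), for *Id3* by *Dynll1* (0.40) and *Gm6682* (0.38), and for *Id4* by *1500011K16Rik* (0.54), *Higd1a* (0.50) and *Gm9242* (0.50). The corresponding 95th percentiles were 0.27, 0.21 and 0.28. A rho over all cells also carries the difference between the classes, and the cells share 1 sort and 1 sample.

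Within the classes the lists changed. In the 27 other cells the genes most like *Id1* were *Cox5a* (0.52), *Ly6a* (0.48), *Psme2b* (0.47), *Rbp7* (0.46) and *Gm14686* (0.45), among 832 genes with a 95th percentile of 0.29. Those most like *Id3* were *Dynll1* (0.69), *Cdkn1a* (0.61), *Cd81* (0.60), *Gm8399* (0.57) and *H2-D1* (0.57), with a 95th percentile of 0.42. All 27 other cells were used, among them cells 13, 67 and 89 with few genes above 0. The ranks were not repeated without these 3. In the 58 stromal cells *Zfyve21* (0.53) led for *Id1*, *Man2b1* (0.45) for *Id2*, *Ptges* (0.48) for *Id3* and *Higd1a* (0.54) for *Id4*, with 95th percentiles of 0.24 to 0.27 over 5382 genes. Several of these, the genes whose names begin with Gm, are mostly predicted genes or pseudogenes that can share reads with a near-identical copy, so their values are uncertain.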

How the data were processed

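The 85 cells were 1 sample, and cells were compared by class as a description, with no test. The authors aligned the reads to mm9 with HISAT2 2.0.5, sorted them with SAMtools 1.4, assembled them with StringTie 1.3.3 and normalised them with scater. The deposited values are a signal of normalised read counts, in 1 table of 16069 genes whose columns were all used. The program that counted the reads is not given in the sources used here.

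Genes above 0 in fewer than 10 cells (9942) were whole numbers. Of the remaining 6127, 723 were whole and 5404 fell into 13 groups, each multiplied by 1 factor per cell (0.0157 to 94.5). The main text of the paper names the default scaling of scater and does not describe such groups, so groups and factors are inferred from the values. By a method devised after the values were seen, all 144272 values of these groups came out as whole reads (tolerance the larger of 1e-06 reads and a share of 2e-09), although 20 of 1105 factors rest on fewer than 10 values. Each factor was itself chosen so that the values were whole multiples of it. In simulated data of 16069 genes, built with the zeros, groups and factors found by the method, nearly all values were recovered. A wrong factor would have been carried into the simulation, so it cannot show that the factors are right. For the Id genes the factors in cells above 0 ranged from 0.0376 to 32.3. With 1 sample, no count test was run on the recovered reads.

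Levels are log2(value + 1). A difference of 1 or more between class means, among genes above 0 in at least 10 cells, was the descriptive threshold. Shares have exact 95% intervals by the Clopper-Pearson method, and for a count of 0 a limit of 3 cells of the total is also given. Alternatives were 10 and 100 reads, CPM of recovered reads, reads thinned to 1146945 per cell, other *Dcn* thresholds, Ward clusters in place of *Dcn*, other pseudocounts, a looser filter of genes above 0 in at least 3 cells, cells above 0 only, classes without cells of mixed or few markers, and mean transcript lengths. Python 3.11.15, numpy 2.4.6, pandas 2.3.3 and scipy 1.17.1 were used. Genes named are the members, up to 4 at either end of each list and the 5 most alike per member, unless said otherwise. The members and lists were chosen with earlier results of these data known. Lengths are from GENCODE M21 (GRCm38), which 15564 gene symbols matched. As the files use mm9, the only coordinates given are those of the printed RefSeq sequences, in their own build. Some muscle, leukocyte and adipocyte markers, among them *Acta2*, *Ptprc* and *Plin1*, were not analysed here.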

Additional observations from a re-analysis of the deposited data

How the results depend on the processing

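The difference between classes kept its sign and its side of a difference of 1 in 46 settings and reversed in 4, all chosen after seeing the data. These were *Id2* (0.40) and *Id3* (0.33) as the log2 ratio of mean CPM, and *Id2* (1.33) and *Id3* (0.81) among cells with 10 or more reads. Shares of cells stayed within their intervals in 78 settings and moved in 2, as *Id1* in stromal cells was 10.3% at 10 and at 100 or more reads. Mean levels moved in 3 of 35 settings, where only cells above 0 were used, to 8.87 for *Id2* and 8.65 for *Id4* in stromal cells and 9.21 for *Id2* in other cells. Of 30 settings for correlations 3 moved with r on log2 values, to 0.12 for *Id1* and *Id2* in other cells, 0.013 for *Id1* and *Id3* in all cells and 0.27 for *Id2* and *Id3* in other cells. Counts of genes from the lists stayed within 1.5 times in 6 settings. Levels per length moved by less than 1 SD over cells with mean transcript lengths, which kept the order of the members but raised *Id3* from 1060 to 1772 in stromal and from 1334 to 2230 in other cells, and *Id2* from 150 to 212 in stromal cells. With a pseudocount of 10 the differences of *Id2* and *Id4* were -1.64 and -1.12, and among cells with 10 or more reads that of *Id1* was 2.51. Leaving out cell 50 and splitting cells at 1000 recovered reads of *Dcn* were added after seeing the data and ended no call. Ward clusters (54 and 31 cells) placed 4 cells otherwise than *Dcn*.

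No paired analysis was possible because the cells form 1 group without replicate numbers shared between groups. With 27 other cells, the exact interval for a gene read in 0 of them reaches 12.8% of cells with reads, and no animal-to-animal spread can be given.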
